A study of Mus musculus with 6 samples.

Results

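The transcripts of 4 Janus kinases (Jak1, Jak2, Jak3 and Tyk2) and of 5 STAT transcription factors (Stat2, Stat3, Stat5a, Stat5b and Stat6) were followed through the immune cells of the mouse midbrain. These 9 genes were chosen by name, as kinase and STAT genes of the JAK/STAT pathway, out of the 32285 genes of the count tables. Live CD45+ cells were sorted from the ventral midbrain of Line 61 mice, which express human α-Syn from the Thy1 promoter, 6 weeks after injection into both sides of the striatum, and 3 to 5 midbrains were pooled per sample. All groups were male Line 61 mice aged 12 to 15 weeks at injection. They received PBS, human α-Syn monomer, human α-Syn preformed fibrils with vehicle (PFF + VH, the vehicle being DMSO), or fibrils with AZD1480, a JAK1/2 inhibitor, at 25 mg/kg by mouth from 2 weeks after injection for 4 weeks (PFF + AZD1480). There was 1 single-cell library per group. The 2 fibril libraries carried hashtag oligos, which label each pool of cells with a barcode, 4 in PFF + VH and 5 in PFF + AZD1480, and each hashtag was taken as 1 biological replicate. Between the fibril groups, the hashtag p-values measure the spread of hashtags within a library, and treatment and library cannot be told apart. Between cell classes or states, they measure the spread of differences within a hashtag, over the hashtags used of both fibril libraries. For cell classes this spread is pooled over all classes, which were fitted together.

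A Janus kinase sits on the inner tail of a cytokine receptor. When the cytokine binds, paired kinases phosphorylate the receptor and then a STAT, which forms a dimer, enters the nucleus and switches on target genes, among them the SOCS genes that shut the pathway down again. JAK1 serves interferon receptors and receptors of the IL-6 and common gamma chain families, JAK2 the interferon-γ and GM-CSF receptors, JAK3 only receptors with the common gamma chain (Il2rg), and TYK2 the type I interferon and IL-12 receptors. STAT2 acts with IRF9 downstream of type I interferon, STAT3 downstream of IL-6 and IL-10, STAT5A and STAT5B downstream of IL-2, IL-7 and GM-CSF, and STAT6 downstream of IL-4 and IL-13. The files measure transcripts, not phosphorylation, which is the step that AZD1480 inhibits.

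In the mm10 (GRCm38) annotation the kinase genes lie on 4 chromosomes: Jak1 at chr4:101152367-101265282 on the minus strand, Jak2 at chr19:29251828-29313080 on the plus strand, Jak3 at chr8:71676296-71690575 on the plus strand and Tyk2 at chr9:21104068-21131243 on the minus strand. The STAT genes lie in 2 regions. Stat3 (chr11:100885098-100939540, minus strand), Stat5a (chr11:100859351-100885169, plus strand) and Stat5b (chr11:100780731-100850724, minus strand) are neighbours, and Stat2 (chr10:128270559-128292849) and Stat6 (chr10:127642986-127660957) share chromosome 10, on the plus strand. Tyk2 overlaps a gene on the opposite strand over 24326 bp, the longest overlap of the 9.

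After filtering, PBS kept 14617 cells, monomer 15031, PFF + VH 34436 and PFF + AZD1480 13021. PFF + VH stood apart in depth, with a median of 2306 unique molecular identifiers (UMIs, 1 per captured transcript) per cell against 6616 to 7028 in the other libraries. Pairs of libraries shared 45 to 151 cell barcodes. Cells were classed by marker transcripts as microglia-like (MG, 11478 to 31314 cells per library), border-associated macrophage-like (BAM, 190 to 261), T cell-like (T, 96 to 144), natural killer cell-like (NK, 9 to 82), B cell-like (B, 27 to 49) and dendritic cell-like (DC, 15 to 19). MG markers made up 1.52 to 1.78% of the UMIs of MG, 0.211 to 0.275% in BAM and 0.0577 to 0.247% in the lymphoid and DC classes, with the highest share of each non-MG class in PFF + VH. The part of this MG RNA in the levels of the small classes was not tested.

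In the 4 libraries, MG held the highest mean level of Stat3 and NK cells the highest of Jak1. DC had the highest mean of Jak2, Tyk2, Stat5a and Stat6, and T cells the highest of Stat5b. Levels are given as counts per 1000000 UMIs of the class (CPM), with the mean ± SD over the 4 libraries, which are 4 different conditions. They hold all cells of a class, also those with several hashtags or none (16885 of the 31314 MG of PFF + VH and 9545 of the 11478 MG of PFF + AZD1480 carried a single hashtag).

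Jak1 was read in MG at 457 CPM (PBS), 479 (monomer), 410 (PFF + VH) and 387 (PFF + AZD1480), the order in which libraries are given below. NK cells stood at 1142, 704, 667 and 749 CPM in the same order, so that every NK library lay above every MG library. The means ran from NK (815 ± 220) through T (504 ± 60.4), MG (433 ± 42.2), B (293 ± 52.4) and DC (286 ± 169) to BAM (257 ± 20.4). The NK and T ranges did not overlap, nor did those of MG and B, while the other neighbours in this order overlapped.

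Jak2 had its highest mean in DC, at 363, 208, 245 and 267 CPM in the same order of libraries. These DC values rest on only 45, 25, 13 and 35 UMIs. T cells followed at 155, 234, 85.0 and 178 CPM, and the DC and T ranges overlapped. NK (120 ± 51.1) and B (93.0 ± 39.3) came next, above MG (47.3 ± 2.44) and BAM (26.2 ± 5.32), and the ranges of B and MG and of MG and BAM did not overlap. Jak3 was low wherever it was seen, at 13.2 ± 0.930 CPM in MG, 12.7 ± 15.3 in NK, 11.7 ± 6.13 in T, 8.12 ± 7.88 in B and 7.13 ± 2.83 in BAM. No Jak3 UMI was found in DC of any library, which allows up to 22.9 to 56.5 CPM in a library taken alone (3 counts of the class total, counting error only). Tyk2 ran from 61.6 CPM in DC and 45.7 in NK to 23.8 in T and 17.7 in B, with MG (25.1 to 29.6) and BAM (14.9 to 31.7) between, and all neighbouring ranges overlapped.

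Among the STAT genes, Stat3 had its highest mean in MG, at 472, 470, 411 and 359 CPM in the 4 libraries. BAM held 225, 268, 243 and 266 CPM, and all 4 lay below the lowest MG library. T cells (197 ± 21.7) and B cells (mean 165) were lower again, with DC (mean 311) and NK (mean 237) between. Between T cells and MG, Stat5b went the other way, at 170 ± 66.1 CPM in T against 67.9 ± 5.36 in MG. T cells of PBS and PFF + AZD1480 were high in Stat5b (248 and 196 CPM), monomer was in between (137) and PFF + VH was low (97.6). Stat5a was highest in DC (mean 50.7 CPM, from 2 to 11 UMIs per library) and low in MG (12.3 ± 0.743) and BAM (mean 11.5). Stat2 ran from a mean of 39.1 CPM in B to 20.7 in T, with 26.5 ± 4.90 in MG and 38.1 ± 13.2 in BAM, and neighbours in the order overlapped. Stat6 ran from 96.7 CPM in DC (74.7 to 132, from 39 UMIs over the 4 libraries) to 54.3 in T, with 75.2 ± 6.06 in MG. Here too neighbours in the order overlapped.

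**Figure D1:**
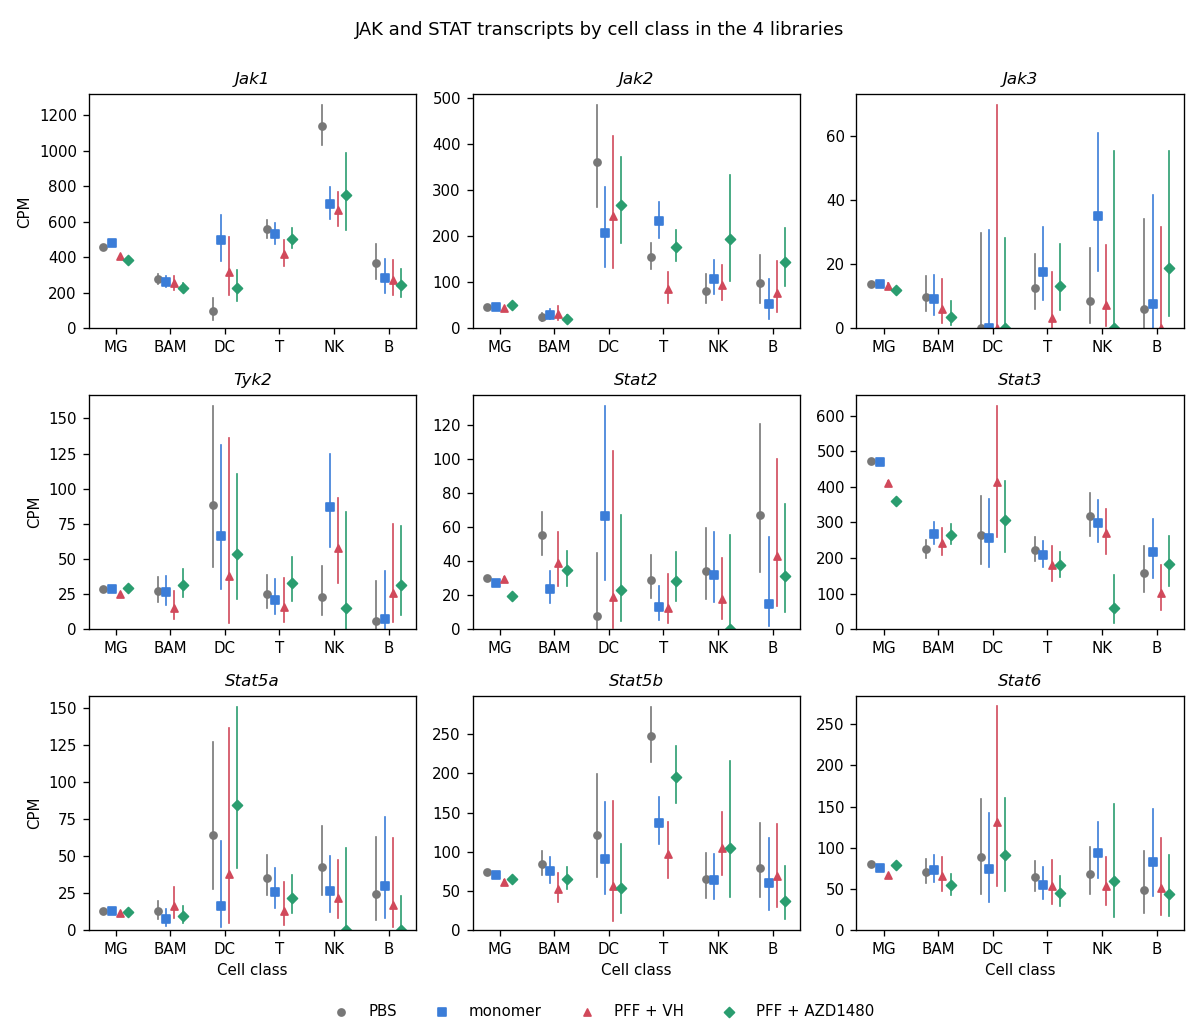
Level of each gene (CPM, linear axes from 0) in the 6 cell classes, with 1 point per library (PBS, monomer, PFF + VH, PFF + AZD1480) and the exact Poisson 95% interval of its UMIs, which covers counting error only. NK cells lie above the other classes for Jak1, MG above BAM, T and B for Stat3, and DC intervals are wide because only 15 to 19 cells stand behind each point.

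Stat3 was lower than in MG of the same hashtag in each of the 4 classes that could be tested (edgeR quasi-likelihood test with the hashtag as a term, Benjamini-Hochberg adjusted over 4934 genes). MG, BAM, T, NK and B were fitted in 1 model. The p-values of NK and B, with few hashtags, therefore rest mostly on the spread of the other classes. Normalized Stat3 levels (CPM after TMM scaling) in MG ran from 355 to 529 over the 9 hashtags, with a median of 433. T cells held 177, 102, 186 and 183 in PFF + VH and 139, 150 and 83.1 in PFF + AZD1480, the hashtags with at least 10 T cells. All 7 were below every MG value, and the log2 fold change was -1.62 (SE 0.20, adjusted p = 4.5e-09). In B cells the log2 fold change of Stat3 was -1.53 (SE 0.43, adjusted p = 0.00634) over 2 hashtags (not passing with hashtags centred within cells, -0.64, adjusted p = 0.114), in NK cells -0.65 (SE 0.23, adjusted p = 0.0225) over 4, where the ranges overlapped, and in BAM -0.56 (SE 0.14, adjusted p = 0.00106), where 6 of 8 hashtags were lower. The BAM hashtags were uneven, from 185 to 501, and overlapped those of MG.

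T cells held more Stat5b than MG. Their normalized levels were 118, 40.8, 148 and 217 in PFF + VH and 185, 259 and 203 in PFF + AZD1480, against 65.5 to 77.6 in MG. T cells were higher in 6 of 7 hashtags, the exception being hashtag 2 of PFF + VH, with a log2 fold change of 1.31 (SE 0.22, adjusted p = 2.7e-06). Jak2 was also higher in T cells (log2 fold change 1.36, SE 0.31, adjusted p = 0.000279), in 5 of 7 hashtags. Its T-cell levels were scattered, from 0 in hashtag 1 of PFF + VH to 332 in hashtag 4 of PFF + AZD1480, against 46.5 to 59.4 in MG. The filter on low counts needs a level in a few samples only, so a gene could enter the test through the class where it was high. By total counts, Jak2 and Stat5b reached at most 53.2 and 69.6 CPM in MG hashtags, against 293 and 232 in T cells. Both passed in 20 of 20 alternative settings, that without the filter included. With the PFF + VH hashtags alone, Jak2 and Stat5b had too few counts in T cells for the test, while Stat3 passed (-1.53). With the PFF + AZD1480 hashtags alone all 3 genes passed (Jak2 1.66, Stat5b 1.64, Stat3 -1.66).

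Jak1 was lower in BAM and higher in NK cells. BAM hashtags held 227, 334, 441 and 286 in PFF + VH and 401, 243, 185 and 229 in PFF + AZD1480, against 399 to 526 in MG. BAM was lower than MG of the same hashtag in 8 of 8 pairs, with a log2 fold change of -0.68 (SE 0.14, adjusted p = 0.000149). NK cells, with 10 or more cells only in PFF + VH, held 589, 770, 577 and 902, higher than MG in 4 of 4 (log2 fold change 0.62, SE 0.20, adjusted p = 0.0118). Jak1 in NK cells passed in 16 of 20 settings, down to 0.21 without a filter on low counts (adjusted p = 0.896), and also did not pass with MULTIseqDemux as the hashtag caller or without hashtag 4 of PFF + VH (0.46) or hashtag 1 of PFF + AZD1480 (0.45). Without hashtag 4 of PFF + VH, no member passed in NK cells. Stat3 in NK cells also did not pass without hashtag 2 of PFF + VH (-0.56) or hashtag 4 of PFF + AZD1480 (-0.52), or with total counts (-0.47, adjusted p = 0.123). Jak2 in BAM, at 0 to 46.9, was lower than in MG in 8 of 8 hashtags (log2 fold change -0.99, SE 0.35, adjusted p = 0.0214). The call was lost without hashtag 2 (-0.79), 4 (-0.83) or 5 (-0.84) of PFF + AZD1480.

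In all, 3 of the 5 members tested passed in BAM and in T cells, 2 in NK cells and 1 in B cells. Of all genes tested, 39.8% passed in BAM, 56.2% in T, 38.5% in NK and 25.4% in B cells by the same test, and each count of members is read against that share. The other 4 members (Jak3, Tyk2, Stat2 and Stat5a) had too few counts in the small classes for the test. In B cells the median of all genes lay at -0.36 on the log2 scale. In NK cells scaling by total counts moved the median of all genes by 0.19, and 1 member then passed.

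**Figure D2:**
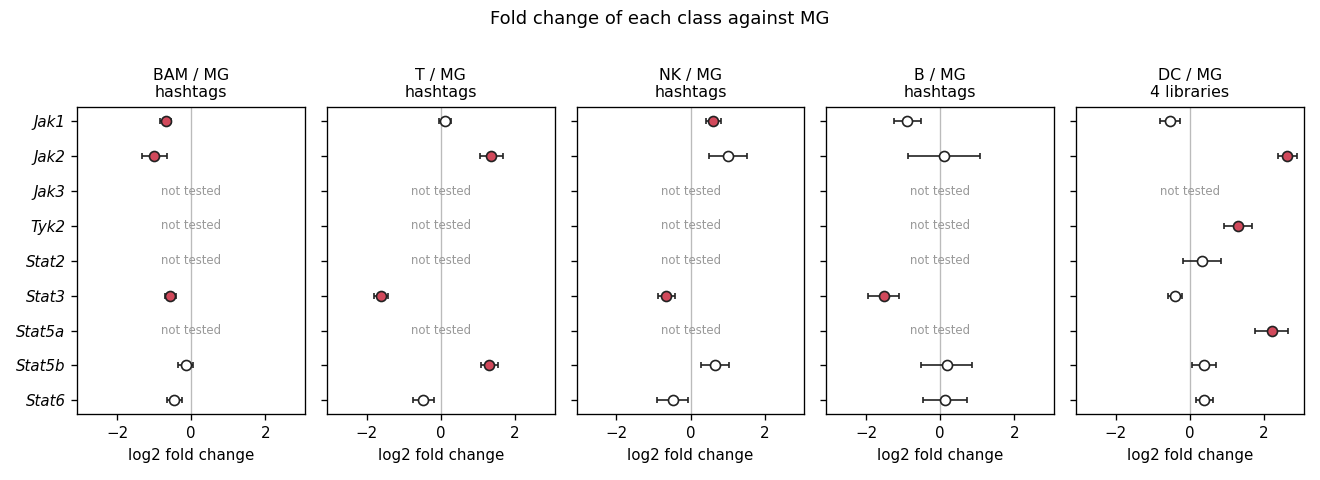
Log2 fold change of each gene in BAM, T, NK and B cells against MG of the same hashtag, and in DC against MG over the 4 libraries, with bars of 1 SE and filled points for adjusted p under 0.05. Stat3 lies below 0 in BAM, T, NK and B, and Jak2 lies above 0 in T and DC and below 0 in BAM.

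No hashtag held 10 DC, so DC were compared with MG over the 4 libraries, each library as 1 sample. Jak2 was higher in DC by a log2 fold change of 2.63 (SE 0.26, adjusted p = 1.97e-08), Stat5a by 2.20 (SE 0.45, adjusted p = 0.000469) and Tyk2 by 1.30 (SE 0.38, adjusted p = 0.011), against 31.4% of 7704 genes called. Stat3 did not pass in DC (-0.40, SE 0.18, adjusted p = 0.108), nor did Stat6 (0.39, SE 0.23, adjusted p = 0.248). The low counts for Stat5a and Tyk2 in DC, 2 to 11 UMIs per library, limit both values. Here too a gene could pass the filter through the class where it was high, and DC were not fitted without the filter. The same model, in which PBS and monomer also count, tested all members but Jak3. It called 4 members in BAM (41.4% of all genes), 5 in T (64.6%), 5 in NK over 3 libraries (54.7%) and 2 in B (46%). Each count is read against the share of all genes beside it. In T cells it added Stat5a (1.09, SE 0.30, adjusted p = 0.00311) and Stat6 (-0.39, SE 0.15, adjusted p = 0.0281). In BAM it added Stat2 (0.64, SE 0.22, adjusted p = 0.0205), in NK cells Jak2 (0.96), Tyk2 (0.99) and Stat5a (1.21), and in B cells Jak2 (1.03).

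Around the members, 42 genes of the pathway (receptor chains, inhibitors, and partners and targets) were listed, and 34 were tested between classes. In T cells 7 were higher and 20 lower than in MG, where 56.2% of all genes passed, with a median log2 fold change of -0.91 against -0.02 over all genes. By role the medians were 0.43 for inhibitors, -1.38 for receptors and -1.25 for partners and targets. The largest in T cells were Cish (5.86), a SOCS-family gene switched on by STAT5, Il2rg (3.47), whose chain binds JAK3, the inhibitor Socs2 (3.41) and the IL-13 receptor chain Il13ra1 (-3.28). In NK cells 7 were higher and 16 lower (38.5% of all genes). They were led by Cish (4.73), Bcl2l1 (-4.38, SE 0.95), a survival gene, Il2rg (3.80) and the cyclin gene Ccnd1 (-3.48, SE 0.86). The sizes of the Bcl2l1 and Ccnd1 folds are imprecise, as NK cells held only 44815, 52373 and 49027 UMIs of all genes in hashtags 1 to 3 of PFF + VH. The NK medians were 0.51 for inhibitors, -1.10 for receptors and -1.42 for partners and targets. In BAM 6 were higher and 9 lower (39.8% of all genes), led by Pim1 (2.09), a kinase gene induced through STATs, Lifr (1.40), a receptor chain for LIF, Il6st (-1.31), the gp130 chain shared by IL-6 family receptors, and Irf1 (-1.24). In B cells 3 were higher and 10 lower (25.4% of all genes), and for the 4 with the largest fitted change, Ccnd1, Bcl2l1, Socs3 and Ifngr1, no fold is given because each had 0 to 2 UMIs per hashtag.

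Within MG, 4 states were set by other transcripts of the same cells, after thinning each cell to 1000 UMIs: interferon-high, disease-associated, cytokine-high and cycling. None of the 9 members was used to set a state. Many cells sat at the limit of a state (291 of the 486 interferon-high cells of PFF + VH held just enough state genes), so that a state is a range rather than a type. The comparison was with MG of none of the 4 states in the same hashtag. The states share cells. In PFF + VH 83.1% of interferon-high, 86.6% of disease-associated and 83.8% of cycling MG were also cytokine-high, against 74.8% of all MG with at least 1000 UMIs. In PFF + AZD1480 the shares were 72.2, 75.4 and 50.0% in the same order, against 69.4%. The reference MG were not cytokine-high, so that the 4 comparisons are not separate observations. Each state was therefore also compared within cytokine-high MG, and with cells of 1 state only, both settings chosen after seeing the data.

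Stat2 was the member with the largest difference of any state. Other MG held 30.9, 24.5, 20.0 and 24.5 normalized CPM in the 4 hashtags of PFF + VH and 19.4 in hashtag 4 of PFF + AZD1480, and interferon-high MG held 204, 165, 185, 171 and 178. Every interferon-high value lay above every value of other MG, a log2 fold change of 2.92 (SE 0.16, adjusted p = 7.59e-15, higher in 5 of 5), against 15.3% of 9481 genes called. Within cytokine-high MG the log2 fold change of Stat2 was 2.64 (adjusted p = 2.63e-20), and with cells of 1 state only 2.60 (adjusted p = 1.69e-06). The 2 libraries without hashtags, which did not enter the test, gave 270 CPM (184 UMIs) in interferon-high MG against 25.8 in other MG for PBS, and 237 CPM (167 UMIs) against 23.6 for monomer.

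The sequence before the Stat2 start is shown because Stat2 is itself known as an interferon-induced gene. Of 11 RefSeq promoters of the 9 members, 1 held GAAA and GAAA in the same direction with any 2 bases between, the letters of an interferon-stimulated response element, on either strand in the 250 bases before the start, and that was Stat2. The capitals mark the match, which begins 222 bases before the RefSeq start (chr10:128270248-128270497, plus strand, GRCm38.p6).
Stat2: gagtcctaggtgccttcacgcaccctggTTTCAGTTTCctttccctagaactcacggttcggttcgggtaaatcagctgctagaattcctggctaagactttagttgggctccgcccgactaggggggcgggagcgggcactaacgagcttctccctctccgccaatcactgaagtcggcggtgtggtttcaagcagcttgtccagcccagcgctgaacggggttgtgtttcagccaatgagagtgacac
Among 32851 promoters, 978 (2.98%) held the GAAA pair and 2306 (7.02%) held TTCNNNGAA, the letters of a STAT dimer element, which no member promoter held in this window. A match is a description of letters and not of binding.

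Against MG of no state, interferon-high MG also held more Jak1 (324, 560, 407, 335 and 450 against 304, 382, 318, 261 and 262 in the same 5 hashtags). The log2 fold change was 0.43 (SE 0.11, adjusted p = 0.00613). Stat3 was higher by 0.40 (SE 0.12, adjusted p = 0.0203) and Stat5b lower by -0.62 (SE 0.22, adjusted p = 0.0473). Jak3 was higher in 5 of 5 hashtags (means 21.4 against 12.2 normalized CPM) but passed only with hashtags centred within cells. With scaling by total counts, which moved the median of all genes by -0.13, Jak1 no longer passed (0.30, adjusted p = 0.0578), nor did Stat3, which also did not pass without hashtag 3 (0.32) or 4 (0.36) of PFF + VH or without a filter on low counts. Within cytokine-high MG, Jak1 was at -0.04 (adjusted p = 0.933) and Stat3 was lower in interferon-high MG (-0.35, adjusted p = 0.0366). Stat5b passed in 10 of 22 alternative settings, and with cells of 1 state only it was at 0.20 (adjusted p = 0.99), Jak1 at -0.73 (adjusted p = 0.316) and Stat3 at -0.16 (adjusted p = 0.99). Of 39 pathway genes tested, 13 were higher and 4 lower, where 15.3% of all genes passed, with a median of 0.33 against -0.05 for all genes. They were led by Cdkn1a (2.59), a cell cycle inhibitor, the feedback inhibitor Socs1 (2.16), Pim1 (1.93) and Il2rg (1.92), and Irf9, the partner of STAT2, was higher by 1.07 (adjusted p = 0.000197). Irf9 was named after its value was seen.

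Cytokine-high MG, which carried transcripts such as Il1b and Tnf, held more Stat3 and Jak1. Over the 9 hashtags Stat3 ran from 377 to 532 normalized CPM (median 447) in cytokine-high MG and from 204 to 352 (median 222) in other MG. The ranges did not overlap, and the log2 fold change was 0.90 (SE 0.04, adjusted p = 4.82e-16, higher in 9 of 9). PBS and monomer, outside the test, held 628 and 608 CPM in cytokine-high against 296 and 297 in other MG.

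Jak1 was at 456 ± 50.8 in cytokine-high and 294 ± 40.9 in other MG (SD, n = 9 hashtags), a log2 fold change of 0.63 (SE 0.04, adjusted p = 1.35e-12). Stat5a (0.46, adjusted p = 0.000134) and Stat6 (0.38, adjusted p = 9.42e-08) were higher as well. Stat5b went the other way, from 73.5 in other MG to 61.1 in cytokine-high MG (log2 fold change -0.27, SE 0.04, adjusted p = 1.93e-06, lower in 9 of 9). These 5 genes passed in 22 of 22 alternative settings, scaling by total counts and cells of 1 state only included. The former moved the median of all genes by -0.14. Stat2 (0.26, adjusted p = 0.00199) and Jak3 (0.27, adjusted p = 0.0407) also passed, Jak3 in only 13 of 22 settings and Stat2 in 19, its call being lost with total counts (0.12, adjusted p = 0.119), with the PFF + AZD1480 hashtags alone (0.15, adjusted p = 0.259) and with cells of 1 state only (0.15, adjusted p = 0.0587), so that 7 of 9 members were called against 49.6% of 11739 genes. Of 40 pathway genes tested, 25 were higher and 7 lower (median 0.25 against -0.02), led by Cdkn1a (1.95), Pim1 (1.90), Irf1 (1.46), an interferon-response factor gene, and Il2rg (1.44).

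Disease-associated MG, set by genes such as Spp1 and Cst7, held less Stat5b. The levels were 64.0, 38.3, 55.4 and 33.7 normalized CPM in PFF + VH and 39.4, 52.7, 49.8, 47.8 and 71.8 in PFF + AZD1480, against 62.3 to 77.9 in other MG. Each hashtag was lower than its own other MG, although the ranges overlapped. The log2 fold change was -0.57 (SE 0.09, adjusted p = 4.91e-06), and Stat5b passed in 23 of 23 alternative settings, at -0.32 within cytokine-high MG (adjusted p = 0.0082) and -0.54 with cells of 1 state only (adjusted p = 0.0201). PBS and monomer held 43.2 and 58.7 CPM in disease-associated against 85.0 and 80.4 in other MG. Jak1 (0.20, adjusted p = 0.00264), Jak2 (0.25, adjusted p = 0.0211) and Stat2 (0.31, adjusted p = 0.0368) passed as well against MG of no state, but none kept its direction in all settings, and Jak2 passed in 13 of 23 settings and Stat2 in 10. Jak1 was at -0.0043 with total counts, which moved the median of all genes by -0.20, and with 1 more state gene required Jak2 was at -0.0042 and Stat2 at -0.11. Within cytokine-high MG, disease-associated MG held less Stat3 (-0.73, adjusted p = 6.02e-11), Jak1 (-0.38, adjusted p = 7.83e-07), Stat5a (-0.65, adjusted p = 0.00261) and Stat6 (-0.21, adjusted p = 0.0401), and Jak2 and Stat2 did not pass. Stat3, at 0.07 against MG of no state, was also lower with cells of 1 state only (-0.93, adjusted p = 9.14e-07), as was Jak1 (-0.31, adjusted p = 0.0487). The 4 of 9 members called against MG of no state stand against 52.4% of 9833 genes. Of 39 pathway genes tested, 19 were higher and 9 lower (median 0.18), led by the inhibitor Socs2 (2.31), Il2rg (2.29), Cdkn1a (2.22) and Pim1 (1.63).

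Cycling MG differed in Stat5a. It held 27.1, 54.1, 11.3 and 10.8 normalized CPM in PFF + VH and 19.9 and 35.8 in hashtags 2 and 4 of PFF + AZD1480, against 7.83 to 10.8 in other MG. Cycling MG was higher in 6 of 6, by a log2 fold change of 1.27 (SE 0.38, adjusted p = 0.00935), but on few molecules, with 26 Stat5a UMIs in the whole cycling class of PFF + VH and 7 in that of PFF + AZD1480. The call was lost without hashtag 2 of PFF + VH (0.93), which held the highest value, and with the PFF + AZD1480 hashtags alone (1.33, adjusted p = 0.371). Jak1 was lower (-0.34, adjusted p = 0.0288, 5 of 6) and passed in 19 of 23 settings, its call being lost with MULTIseqDemux as the hashtag caller, without hashtag 1 (-0.27) or 4 (-0.33) of PFF + VH and with the PFF + AZD1480 hashtags alone (-0.12, adjusted p = 0.833). Stat5b was lower as well (-0.64, adjusted p = 0.0405) and passed in 12 of 23. Within cytokine-high MG, Stat5a no longer passed in cycling MG (0.81, adjusted p = 0.176), Stat5b did not pass (-0.38, adjusted p = 0.327), and Jak1 (-0.97, adjusted p = 1.03e-09) and Stat3 (-0.84, adjusted p = 1.07e-07) were lower. With cells of 1 state only, Stat5a was at 0.38 (adjusted p = 0.922), while Stat3 (-1.99, adjusted p = 1.4e-05) and Jak1 (-1.39, adjusted p = 0.000728) were lower. The 3 of 9 members called are near the 31.9% of 9677 genes called. Of 38 pathway genes, 4 were higher and 10 lower (median -0.13), led by Cdkn1a (3.71), Lifr (-2.36), Pim1 (higher, adjusted p = 5.95e-11) and Il2rg (1.63).

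**Figure D3:**
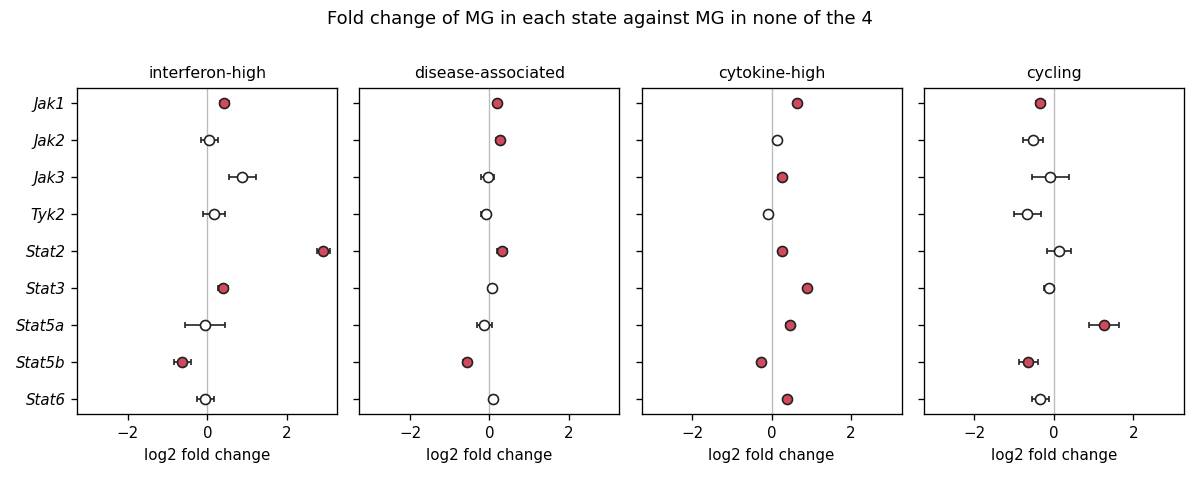
Log2 fold change of each gene in MG of each state against MG in none of the 4 states, with bars of 1 SE and filled points for adjusted p under 0.05. Stat2 stands at 2.92 in interferon-high MG, while Stat5b lies below 0 in each of the 4 states, which share cells.

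**Figure D4:**
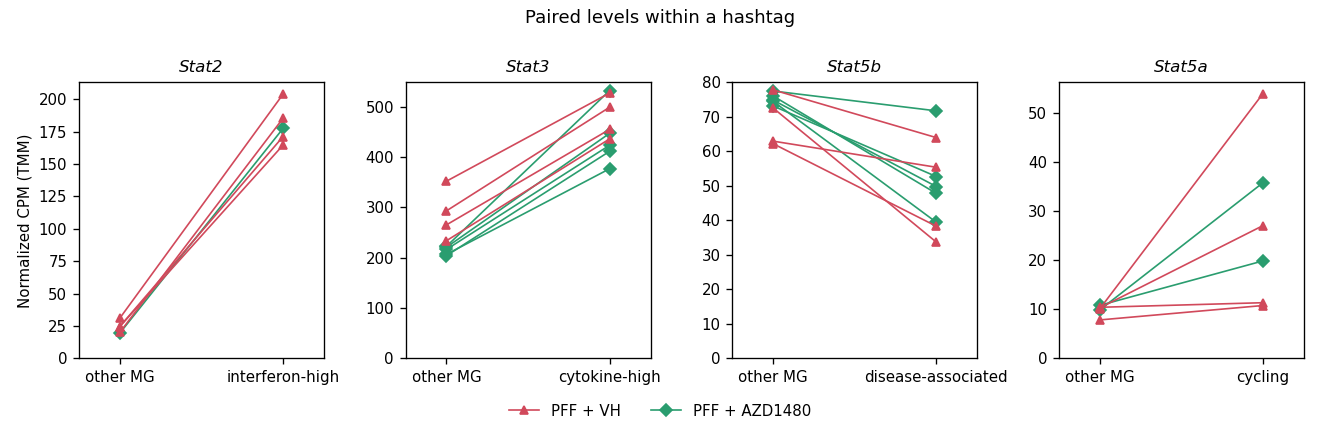
Normalized CPM (TMM, axes from 0) of 1 gene per panel in MG of a state and in other MG, with a line for each hashtag. All lines rise for Stat2, Stat3 and Stat5a and all fall for Stat5b, and the flattest of the 6 Stat5a lines goes from 10.4 to 11.3.

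The libraries were compared next, PBS, monomer and PFF + VH having 1 library each and no test. In MG no member moved by 1.5-fold or more between monomer and PBS, where 2.44% of 13645 genes did, or between PFF + VH and monomer, where 8.72% of 13898 did. From PBS to monomer the log2 ratios ran from -0.15 (Stat2) to 0.07 (Jak1). From monomer to PFF + VH they ran from -0.22 (Jak1) to 0.12 (Stat2), and 8 of 9 were below 0, with the median of all genes at -0.07. In BAM, Stat2 was read at 55.4 CPM (79 UMIs) in PBS and at 23.5 CPM (26 UMIs) in monomer, a ratio of 0.43 after adding 0.5 UMI to each count, as for all library ratios here, with a log2 value of -1.22 (95% normal-approximation interval -1.85 to -0.59, counting error only). Of all genes, 7.1% of 4155 moved by 1.5-fold or more in BAM between monomer and PBS and 8.71% of 2950 between PFF + VH and monomer, where no member with at least 100 UMIs over both libraries did (Jak1, Stat3, Stat5b and Stat6, 4 of 9, had them). With at least 4 class markers required, Stat2 in BAM had under 100 UMIs and was not compared.

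The PFF + VH library was shallower per cell, and its MG held more Gm42418 RNA, a ribosomal RNA-related transcript (12273 CPM against 6411 to 8528 in the others), and more mitochondrial RNA (1.28% against 1.01 to 1.03%). Genes with long spans were also lower in it: the median log2 ratio of PFF + VH to monomer went from 0.04 for genes under 10 kb to -0.13 for genes over 100 kb. The part of these measures in the small member shifts was not tested.

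AZD1480 inhibits the kinases that Jak1 and Jak2 encode, and the last comparison asked whether the transcripts of the pathway differed with it. In MG, Stat2 was lower in PFF + AZD1480. The hashtags of PFF + VH held 36.3, 29.4, 28.1 and 28.6 normalized CPM, and those of PFF + AZD1480 held 18.2, 17.5, 15.4, 22.4 and 18.6. The groups did not overlap, with means of 30.6 ± 3.83 (SD, n = 4) and 18.4 ± 2.55 (SD, n = 5). The log2 fold change was -0.72 (SE 0.10, adjusted p = 0.000502, edgeR quasi-likelihood test), and 26.2% of the 13657 genes passed the same test. Stat2 passed in 22 of 22 alternative settings, between -0.80 and -0.40, the smallest being with each cell thinned to 1000 UMIs (adjusted p = 0.0487).

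Interferon-high MG made up 1.75, 1.96, 2.10 and 1.87% of MG in the PFF + VH hashtags and 0.155 to 0.801% in those of PFF + AZD1480. Without the interferon-high cells Stat2 was still lower (log2 fold change -0.62), and among MG of none of the 4 states it was lower by -0.51 (adjusted p = 0.0213). PBS and monomer MG held 30.1 and 27.1 CPM of Stat2, near the 29.4 of PFF + VH and above the 19.4 of PFF + AZD1480, with no test between those libraries.

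Stat6 was the other member that passed. It held 70.3, 73.6, 68.6 and 62.2 normalized CPM in PFF + VH and 82.1, 83.2, 75.3, 72.7 and 75.5 in PFF + AZD1480. The groups overlapped at 1 hashtag each, and the log2 fold change was 0.18 (SE 0.06, adjusted p = 0.0382), which passed in 14 of 22 settings. The call was lost with each cell thinned to 1000 UMIs (0.17, adjusted p = 0.134) and without the interferon-high cells (0.17, adjusted p = 0.0541). Among MG of none of the 4 states Stat6 was at 0.11 (adjusted p = 0.491). Stat2 and Stat6 were the only members called in MG, which is read against the 26.2% of all genes that passed. The median absolute log2 fold change over all genes tested was 0.168, so that the 0.18 of Stat6 was of ordinary size in this comparison.

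The transcripts of the drug's own targets did not pass the test. Jak1 held 373, 468, 427 and 375 normalized CPM in PFF + VH and 393, 385, 351, 351 and 453 in PFF + AZD1480 (log2 fold change -0.09, SE 0.09, adjusted p = 0.492). Jak2 held 40.6, 45.6, 46.6 and 48.0 against 51.9, 49.0, 47.9, 50.4 and 51.6 (0.15, SE 0.05, adjusted p = 0.0631). Tyk2 reached at most 28.2 in PFF + VH and ran from 27.1 to 31.5 in PFF + AZD1480 (0.16, SE 0.06, adjusted p = 0.0606). With total counts in place of TMM scaling, Jak2 (0.20, adjusted p = 0.0188) and Tyk2 (0.21, adjusted p = 0.0249) passed, and Tyk2 also without the interferon-high cells (0.17, adjusted p = 0.0445). With each cell thinned to 1000 UMIs neither passed, Jak2 being at -0.0036 (adjusted p = 1.00) and Tyk2 at 0.24 (adjusted p = 0.121). Stat3 ran from 356 to 471 in PFF + VH and from 312 to 418 in PFF + AZD1480 (-0.20, SE 0.09, adjusted p = 0.149). Among MG of none of the 4 states Stat3 was lower by -0.41 (adjusted p = 0.00749). Jak3 (-0.18), Stat5a (0.10) and Stat5b (0.06) did not pass, with adjusted p between 0.192 and 0.476.

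**Figure D5:**
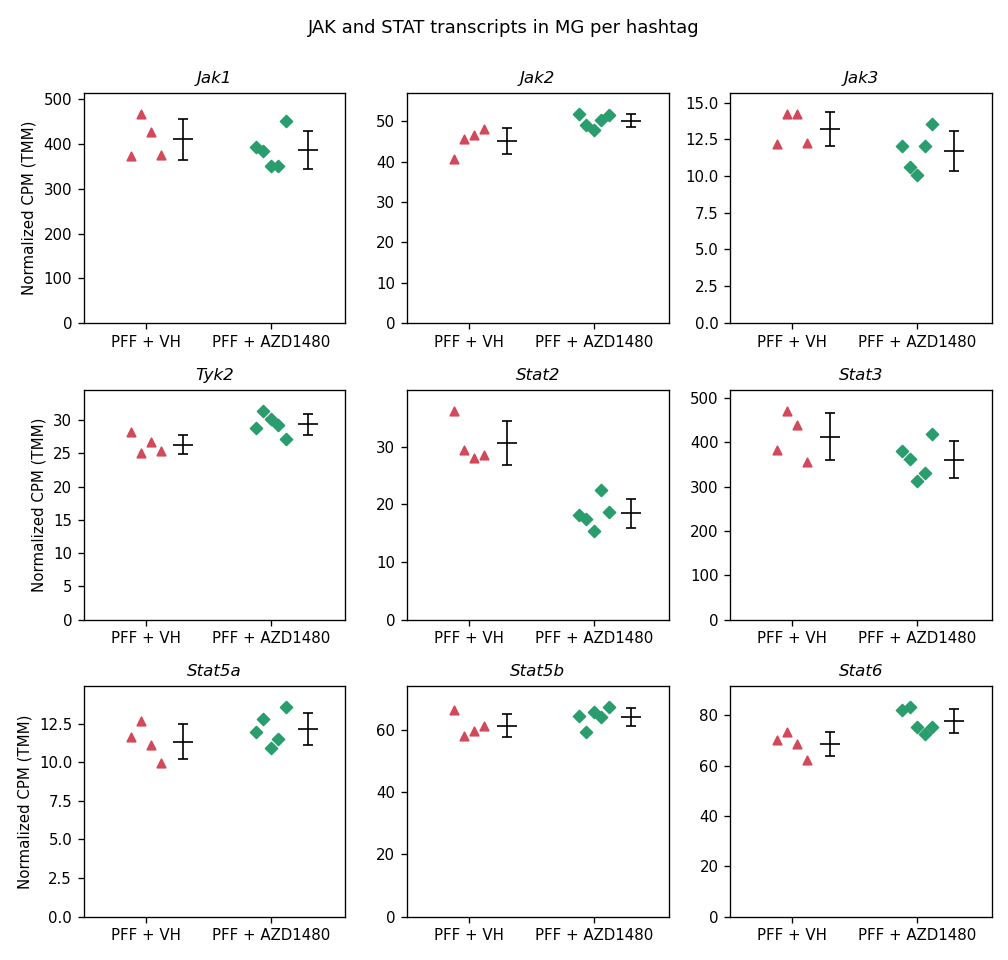
Normalized CPM (TMM, axes from 0) of each gene in MG, with 1 point per hashtag and the mean ± SD beside it (4 hashtags of PFF + VH, 5 of PFF + AZD1480). The Stat2 points of PFF + AZD1480 (15.4 to 22.4) lie below all points of PFF + VH (28.1 to 36.3), and the groups overlap for each of the other 8 genes.

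Of the 42 pathway genes, 41 were tested in MG, 9 were higher and 6 lower in PFF + AZD1480, where 26.2% of all genes passed, and the median log2 fold change was 0.06 against -0.00 over all genes. The lower genes with the largest changes were Irf9 (-0.84, adjusted p = 4.21e-05), Socs1 (-0.81, adjusted p = 0.00793) and the type I interferon receptor chain Ifnar2 (-0.44, adjusted p = 7.69e-05). The IL-6 receptor gene Il6ra was higher (0.37, adjusted p = 0.000157). By role, 5 receptor genes of 14 were higher and 2 lower, 3 inhibitors of 17 were higher and 2 lower, and 1 of 10 partners and targets was higher and 2 lower.

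In BAM and T cells no member was called between PFF + AZD1480 and PFF + VH. In BAM 4 members were tested, Jak1 (-0.25), Stat3 (0.01), Stat5b (0.34) and Stat6 (-0.20), with SE from 0.27 to 0.36, where 0.0686% of 2916 genes passed. BAM Stat3 held 332, 249, 536 and 222 normalized CPM in PFF + VH and 316, 310, 193 and 514 in PFF + AZD1480, and the ranges overlap over most of their length. In T cells Jak1 (0.22), Stat3 (-0.49) and Stat5b (0.59) were tested, and 0% of 1127 genes passed by edgeR, with 152 at an unadjusted p under 0.05 and 24 genes by DESeq2. No pathway gene passed in either class, of 25 tested in BAM and 8 in T cells.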

How the data were processed

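The 4 matrices held raw UMI counts, which per the file headers the authors made with Cell Ranger 7.0.1 against mm10 from 10x 3' libraries, without normalization. Whether intronic reads were counted is not given in the sources used here. Strand use in counting is not given either, and counts are uncertain where genes share bases: Tyk2 overlaps the antisense gene 1700084C06Rik over 24326 bp, Stat3 and Stat5a overlap over 72 bp, Stat6 and Nab2 over 40 bp, Jak1 and Raver2 over 4 bp, and Jak3 and Insl3, on the same strand, over 1362 bp.

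Cells with 500 to 15000 UMIs, 250 to 5000 genes and at most 10% mitochondrial UMIs were kept. Total UMIs of the kept cells were 85123603 to 106977072 per library. Hashtags were assigned with HTODemux in Seurat 5.3.0 at a 0.99 quantile. Cells with markers of several classes were left out, and no doublet caller was run. Cells with several or no hashtags were left out of the hashtag tests only and stayed in the library levels, class counts and library state shares. A class needed at least 3 of its marker genes (5-fold above the MG background), and a state 2 state genes (3 for cytokine-high). The limits were set after a first look at the cells, and the names are rebuilt from markers.

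Counts were summed per hashtag, with at least 10 cells, and tested in edgeR 4.0.16 (R 4.3.3; filterByExpr, TMM, quasi-likelihood F-test, Benjamini-Hochberg over all genes tested, threshold 0.05), with the hashtag as a term between classes and states. The edgeR fit was also run on simulated counts. These took the samples and depths of the fibril groups in MG, BAM and T cells, BAM against MG, and interferon-high against other MG. They had the same relative spread for every gene and no hashtag effect, unlike the data, and no result here rests on them. Every member that passed in the main tests was named, and of the pathway list the 4 called genes with the largest absolute log2 fold change. Members that did not pass were named in some comparisons only. The members and lists were chosen with earlier results of these data known. A library ratio was called past 1.5-fold among genes with at least 100 UMIs, after adding 0.5 UMI to each count, with a 95% normal-approximation interval of the log ratio. Levels have exact Poisson 95% intervals. Both cover counting error only.

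Alternatives were DESeq2 1.42.0, no filter on low counts, other cell, class, state and hashtag limits, each hashtag left out, hashtag numbers as a block and, chosen after seeing the data, scaling by total counts among others. Same-numbered hashtags of the 2 fibril libraries did not deviate together.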

Additional observations from a re-analysis of the deposited data

Results flagged for a closer look

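Each gene's CPM by total counts over the hashtags of a class and library was screened for 1 value far from the others (Dixon's criterion, 53 sets of hashtags), which chance meets in about 1 in 20 sets, and 4 values met it. Jak2 in BAM was lowest in hashtag 1 of PFF + VH, at 14.6 CPM. Stat6 in BAM was lowest in hashtag 3 of PFF + VH, at 27.3 CPM. Jak3 was highest at 15.1 CPM in T cells of hashtag 4 of PFF + VH and at 38.2 CPM in NK cells of hashtag 2 of PFF + VH. In both Jak3 sets the other hashtags held 0, so that any count would have met the criterion. All 4 rest on few UMIs, and their cause was not tested.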

How the results depend on the processing

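Of 1575 member values recomputed under 28 settings, 1437 were unchanged, 91 no longer passed, 34 newly passed and 13 reversed. Unchanged means the same side of the threshold or, for library ratios, a value within counting error of the main one. Of the unchanged test values, 55, which passed in neither, changed sign. In disease-associated MG the reversed values were -0.0043 for Jak1 with total counts, and -0.0042 for Jak2 and -0.11 for Stat2 with 1 more state gene. Comparing within cytokine-high MG, a setting chosen after seeing the data like that of 1 state only, reversed Jak1 (-0.38), Stat3 (-0.73) and Stat6 (-0.21) in disease-associated MG and Jak1 (-0.037) and Stat3 (-0.35) in interferon-high MG. With cells of 1 state only, Jak1 (-0.31) and Stat3 (-0.93) in disease-associated MG and Jak1 (-0.73), Stat3 (-0.16) and Stat5b (0.20) in interferon-high MG were reversed. Of the members called in interferon-high MG, 4 became 2 within cytokine-high MG and 1 with cells of 1 state only. Total counts as scaling, a setting chosen after seeing the data, gave 4 members called in MG between PFF + AZD1480 and PFF + VH in place of 2, 1 in place of 2 in NK cells, 2 in place of 4 in interferon-high MG and 2 in place of 4 in disease-associated MG. With cells thinned to 1000 UMIs 1 member was called in MG between the fibril groups. The 4 libraries as samples gave 5 in T cells in place of 3 (4979 of 7704 genes), 5 in NK cells (4215 of 7704) and 2 in B cells (3545 of 7704). PFF + VH hashtags alone gave 1 in T cells (1254 of 2208 genes). Without a filter on low counts the counts were 1 in NK cells, 2 in B cells and 1 in disease-associated MG. With MULTIseqDemux they were 1 in NK cells and 0 in cycling MG (1651 of 5920 genes). In B cells leaving out Gm42418, AY036118 and CT010467.1 gave 2 and centring hashtags within cells gave 0, against 1. With 1 more state gene 1 was called in disease-associated MG, and with PFF + AZD1480 hashtags alone 2 in disease-associated and 0 in cycling MG (1021 of 10182 genes). Of the library levels, 2 passed the fold with at least 1000 UMIs per cell and 0 with at least 4 class markers, against 1.

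With each hashtag left out in turn, the members called ranged from 1 to 3 in MG between the fibril groups (1 without hashtags 1 or 3 of PFF + VH or 1 or 2 of PFF + AZD1480, each of which lost Stat6, as did leaving out hashtag 4 of PFF + VH), from 2 to 4 in BAM, 0 to 2 in NK cells (0 without hashtag 4 of PFF + VH, 1 without its hashtag 2 or hashtags 1 or 4 of PFF + AZD1480), 1 to 2 in B cells (2 without hashtag 3 of PFF + VH or 1 of PFF + AZD1480), 2 to 4 in interferon-high MG (2 without hashtag 4 of PFF + VH) and in disease-associated MG (2 without hashtags 3 or 4 of PFF + VH), 6 to 8 in cytokine-high MG and 1 to 4 in cycling MG (1 without hashtags 1 or 4 of PFF + VH). No member was called in BAM or T cells between the fibril groups in any of them, and 3 were called in T cells against MG in each. The number of all genes called changed by over 1.5 times in some settings. Between the fibril groups it was 3573 in MG but 1628 with thinned cells and 1318 in MG of no state, 2 in BAM but 1 to 59, and 0 in T cells but 2 to 53 where it changed. Against MG, dropping the filter gave 3160 for BAM and 4552 for T in place of 1965 and 2772. PFF + VH hashtags alone gave 752 for BAM, 1254 for T and 1232 for NK in place of 1899, and libraries as samples gave 3191, 4979, 4215 and, for B, 3545 in place of 1252. MULTIseqDemux gave 831 in interferon-high MG in place of 1447 and 1651 in cycling MG in place of 3091, where PFF + AZD1480 hashtags alone gave 1021. Cells of 1 state only gave 122 genes in interferon-high, 2451 in disease-associated (in place of 5151) and 869 in cycling MG, and within cytokine-high MG 723 passed in interferon-high MG.

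Same-numbered hashtags correlated between -0.04 and 0.07 over 13657 genes. This cannot show whether pools were prepared in pairs, and the labels give no map from hashtag to animals, so any pairing is unknown. The replicate block kept 2 members called in MG (Stat2 -0.73, adjusted p = 0.00284), with 4 genes called in BAM and 25 in T cells. No DC test over hashtags could be made, and the cause of the changed counts was not tested. Depth limits Jak3, Tyk2, Stat2 and Stat5a outside MG.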

Other observations

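For each member the 2 genes with the most similar pattern were taken by Pearson's r of log2(CPM + 1) over the 24 pairs of class and library, among 12366 other genes. These points share libraries and depth, and r is a description with no test. Jak1 was most like Nktr (r = 0.893) and Arl6ip5 (0.866), Jak2 like Tes (0.867) and Me2 (0.860), Jak3 like 4930522L14Rik (0.916) and Nupl2 (0.913), and Tyk2 like Tent4a (0.799) and Akr1e1 (0.756). Stat2 was most like Imp4 (0.894) and Spidr (0.862), Stat3 like Pdgfb (0.917) and Itgam (0.877), and Stat5a like Tfdp1 (0.892) and Nsdhl (0.857). Stat5b was most like Cd3d (0.800) and Trac (0.767), both T cell receptor genes used to class T cells, and Stat6 like Cdc42 (0.774) and Mpp6 (0.740). Among the members themselves the highest r was 0.57, between Stat3 and Stat6, and the lowest -0.43, between Jak2 and Jak3.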
